A study of Mus musculus with 8 samples.

Results

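The genes described here move iron and haem across membranes, store iron, break haem down or set the level of the proteins that do so. They were chosen by name and by role. All 10 were found, each with 1 probe set, among the 29915 genes that the arrays measured with a probe set of a single gene symbol: Tfrc, Slc11a2, Steap3, Slc25a37, Fth1, Slc40a1, Hmox1, Flvcr1, Aco1 and Ireb2.

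RNA of LT-HSC from mouse marrow (long-term haematopoietic stem cells, which renew all blood lineages) was hybridised to 8 Affymetrix expression arrays. The gate took CD150+ and CD48- cells that were also Lin-, cKit+, Sca+ and Flk2-. The 4 groups, with 2 arrays each, were CD169DTR/+ mice given 2 Gy of total body irradiation, CD169DTR/+ mice left non-irradiated, WT mice given 2 Gy and WT mice left non-irradiated. Every mouse, WT included, had received diphtheria toxin 72 h before irradiation or sham treatment, and LT-HSC were isolated at day 5 after it. CD169DTR/+ mice carry the receptor of the toxin under the gene of CD169 (Siglec1), on a single allele, so that the toxin removes CD169+ macrophages of the niche. The WT mice thus control for the toxin but no group is free of it, and the labels give neither the age of the mice nor how many were used per array. The submitters' design text calls the replicates distinct experiments.

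Cells take up iron as transferrin through the transferrin receptor, reduce it in the endosome and pass it into the cytosol, from where it goes to mitochondria for haem and iron-sulphur clusters, to ferritin for storage, or out through ferroportin. When iron is scarce, the iron regulatory proteins bind stem-loops in the mRNAs of these genes, which stabilises the mRNA of the transferrin receptor and blocks translation of ferritin. Much of this control acts on translation and protein stability, which an RNA array does not measure. Erythroblasts use more iron than other marrow cells, and macrophages recycle the iron of old red cells.

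None of the 10 genes passed the test in any of 7 comparisons (limma, adjusted p under 0.05 over 30294 probe sets), and none had an unadjusted p under 0.05 in any of the 70 tests. Over all probe sets, the share with an adjusted p under 0.05 was 0.0099% for 2 Gy minus non-irradiated in WT, 0.0% in CD169DTR/+ and 0.0099% for the average of both genotypes. It was 0.0% for CD169DTR/+ minus WT without irradiation, after 2 Gy and on average, and 0.0% for the interaction, the CD169DTR/+ minus WT difference of the 2 Gy effects. Unadjusted p-values under 0.05 made up 7.81%, 6.77%, 9.23%, 4.38%, 7.57%, 6.33% and 5.17% of all probe sets in the same order. With 10 genes, a count of 0 lies near those shares. The smallest unadjusted p of the 70 tests was 0.0633, for Hmox1 in CD169DTR/+ minus WT on average (limma adjusted p = 0.807).

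The irradiation itself was visible in the same arrays. Cdkn1a, the cell cycle inhibitor induced by p53, averaged 13.235 in WT 2 Gy arrays and 8.125 in WT non-irradiated arrays, a log2 difference of 5.11 (limma adjusted p = 0.0073). In CD169DTR/+ its log2 difference was 3.67 (limma adjusted p = 0.0622). Siglec1 lay between 3.86 and 4.12 on the 8 arrays, close to the 25th percentile of each array (3.85 to 4.04), so it does not check the genotype in this gate. Of 10 genes listed as markers of LT-HSC and of the gate, 8 were measured, and Kit and Slamf1 (CD150) had values of 14.25 to 14.93 and 10.66 to 12.38. Hlf had 12.44 to 13.33, Mecom 7.85 to 8.62, Fgd5 7.59 to 8.89 and Procr 6.27 to 7.03. Flt3 (Flk2), which the gate excluded, had 5.85 to 8.22, with the highest value in CD169DTR/+ non-irradiated replicate 2. Cd48, whose protein the gate required to be absent, had log2 values of 13.0 to 13.47 in CD169DTR/+ 2 Gy, 11.05 to 12.54 in CD169DTR/+ non-irradiated, 12.14 to 12.95 in WT 2 Gy and 10.98 to 11.24 in WT non-irradiated. The 8 markers pool Flt3 and Cd48, which the gate excluded, with genes of LT-HSC, so counts by direction do not measure a loss of LT-HSC markers. In WT, Flt3 was 6.45 and 6.65 after 2 Gy against 7.99 and 7.12 without. Kit was 14.36 and 14.33 against 14.93 and 14.89. For 2 Gy in WT, 5 of the 8 markers had an unadjusted p under 0.05, 4 of them lower, against 7.81% of all probe sets. In CD169DTR/+ 4 of the 8 markers did, 3 of them lower, against 6.77%. On average over genotypes 5 did, 4 of them lower, against 9.23%. None passed in these comparisons, where the smallest limma adjusted p was 0.387, 0.544 and 0.209. Pearson's r between the 2 arrays of a group, across probe sets, was 0.9906 to 0.9943, and 4 of the 8 arrays correlated more closely with an array of another group. The array medians lay between 4.76 and 4.93, and the median of all probe sets moved by at most 0.075 log2 in any comparison.

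**Figure D1:**
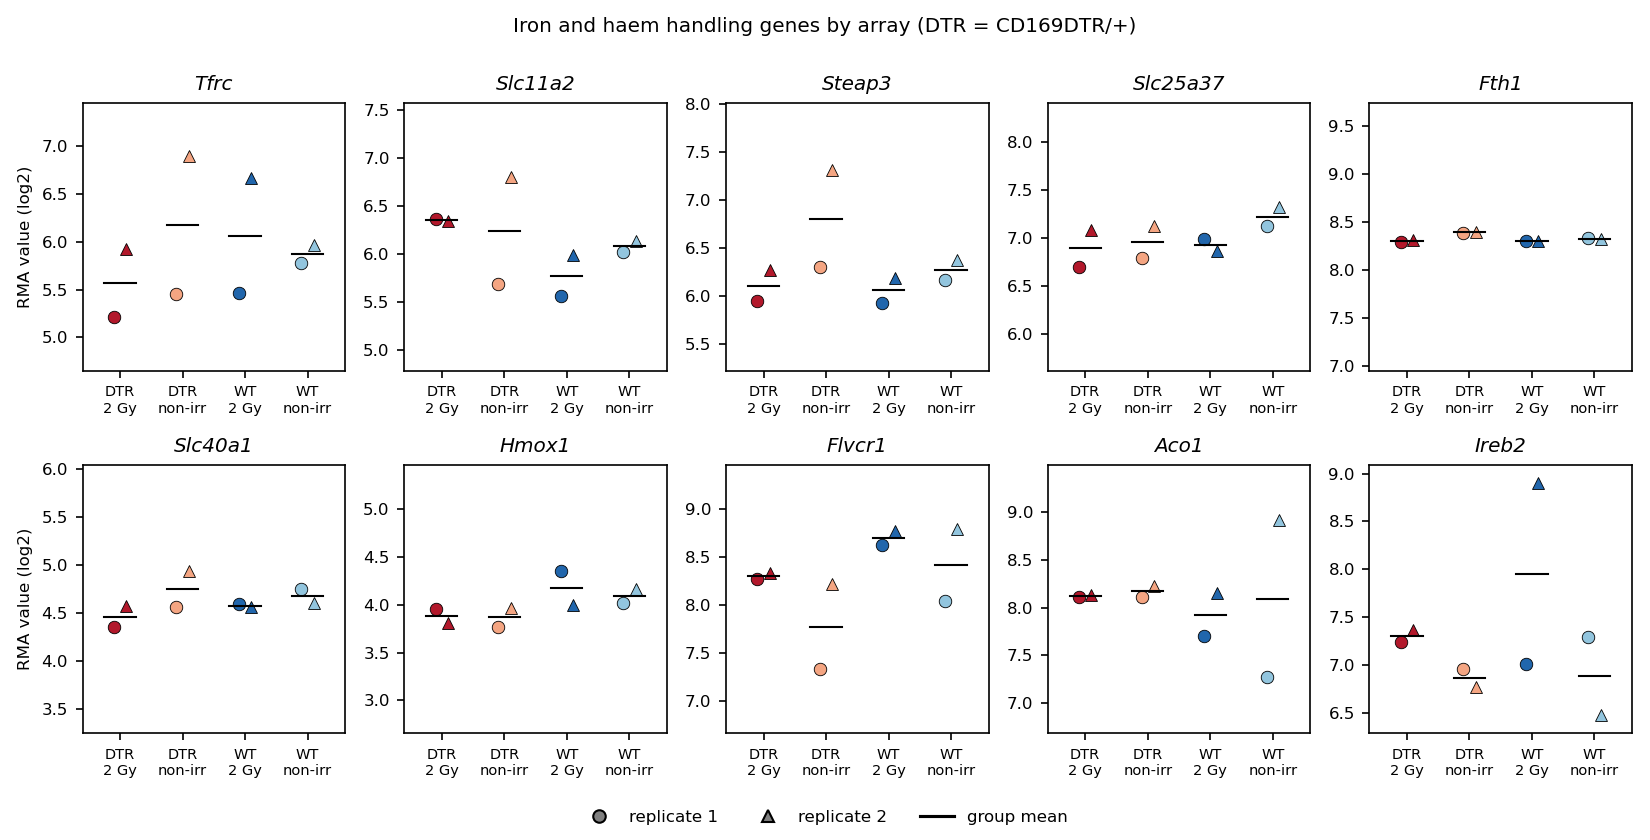
Log2 values of each of the 10 genes on each array, in 1 panel per gene with its own axis, for CD169DTR/+ 2 Gy, CD169DTR/+ non-irradiated, WT 2 Gy and WT non-irradiated from left to right; points are arrays and lines are group means. In Fth1 the arrays span 0.11 log2, against 2.42 log2 in Ireb2, where WT 2 Gy replicate 2 stands at 8.9.

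RefSeq promoter windows (mouse build GRCm38.p6) were found for 6 of the 10 genes, with 11 windows in all, each of the 250 bases before a transcript start. Of the 5 genes whose highest value lay in 1 and the same array (CD169DTR/+ non-irradiated replicate 2) Tfrc, Steap3 and Fth1 have such a window, and 1 window of each is shown so that their promoters can be read side by side. The windows shown were chosen after their matches were known, and capitals mark the match.
Tfrc, chr16:32608872-32609121, plus strand: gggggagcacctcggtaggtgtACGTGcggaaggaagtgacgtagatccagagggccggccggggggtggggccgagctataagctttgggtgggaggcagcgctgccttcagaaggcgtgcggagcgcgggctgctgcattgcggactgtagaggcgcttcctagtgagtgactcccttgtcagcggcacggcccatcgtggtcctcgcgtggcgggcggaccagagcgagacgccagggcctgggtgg
Steap3, chr1:120265287-120265536, minus strand: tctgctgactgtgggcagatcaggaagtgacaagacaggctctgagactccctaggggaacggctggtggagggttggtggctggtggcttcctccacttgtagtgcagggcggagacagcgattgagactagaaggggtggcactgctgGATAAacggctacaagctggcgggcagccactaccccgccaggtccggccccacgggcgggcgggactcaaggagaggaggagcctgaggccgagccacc
Fth1, chr19:9982396-9982645, plus strand: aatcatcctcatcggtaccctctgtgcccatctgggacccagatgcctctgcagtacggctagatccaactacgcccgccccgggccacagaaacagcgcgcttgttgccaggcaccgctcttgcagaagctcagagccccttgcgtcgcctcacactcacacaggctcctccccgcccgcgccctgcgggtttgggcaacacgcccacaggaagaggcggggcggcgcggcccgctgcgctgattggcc
The windows were searched on both strands for 3 motifs that do not contain one another: ACGTG, the core of the hypoxia response element; GATAA, read by GATA factors; and TGANNNNGC, a core of the antioxidant response element. ACGTG stands at base -228 of the Tfrc window and GATAA at base -100 of the Steap3 window, counted from the transcript start, and the Fth1 window shown holds none of the 3. Of the windows not shown, the other one of Fth1 holds GATAA at base -175, those of Steap3 hold GATAA at base -45 and TGANNNNGC at base -151 (1 window each), and the other one of Tfrc holds none. Over the windows of the 10 genes, 1 of 11 held ACGTG, 3 held GATAA and 3 held TGANNNNGC, against 16.6%, 22.6% and 35.2% of the 32851 windows of all genes. A match is a description of letters and no site was measured.

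Tfrc encodes the transferrin receptor, the main route of iron into dividing cells. On the arrays it had log2 values of 5.21 and 5.92 in CD169DTR/+ 2 Gy (replicates 1 and 2), 5.45 and 6.89 in CD169DTR/+ non-irradiated, 5.46 and 6.66 in WT 2 Gy and 5.78 and 5.96 in WT non-irradiated. The groups overlap in all 4 pairwise comparisons, and the gap between replicates reached 1.44 log2 in CD169DTR/+ non-irradiated. The log2 difference for 2 Gy minus non-irradiated was 0.19 in WT (95% interval -1.16 to 1.54) and -0.605 in CD169DTR/+ (-1.96 to 0.746), and the interaction was -0.795 (-2.71 to 1.12, limma adjusted p = 0.968). These intervals leave room for changes of more than 1.5-fold either way. Without CD169DTR/+ non-irradiated replicate 2, the value in CD169DTR/+ was 0.115 and the interaction -0.075.

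Steap3, the endosomal reductase that turns ferric into ferrous iron, had log2 values of 5.94 and 6.27 in CD169DTR/+ 2 Gy, 6.3 and 7.31 in CD169DTR/+ non-irradiated, 5.92 and 6.19 in WT 2 Gy and 6.16 and 6.37 in WT non-irradiated. Both CD169DTR/+ 2 Gy arrays lay below both CD169DTR/+ non-irradiated arrays, while the WT arrays overlapped. The log2 difference was -0.7 in CD169DTR/+ (95% interval -1.48 to 0.0769, limma adjusted p = 0.777) and -0.21 in WT, and without CD169DTR/+ non-irradiated replicate 2 the CD169DTR/+ value was -0.195. Averaged over genotypes it was -0.455 (-1.0 to 0.0943, limma adjusted p = 0.583), which was the smallest adjusted p of the 10 genes in any comparison. Without the same array this average was -0.203.

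Slc11a2 encodes DMT1, which carries ferrous iron out of the endosome. The log2 values were 6.37 and 6.35 in CD169DTR/+ 2 Gy, 5.69 and 6.8 in CD169DTR/+ non-irradiated, 5.56 and 5.99 in WT 2 Gy and 6.02 and 6.14 in WT non-irradiated. After 2 Gy both CD169DTR/+ arrays lay above both WT arrays, with a log2 difference of 0.585 (95% interval -0.242 to 1.41, limma adjusted p = 0.742) and 0.37 without WT 2 Gy replicate 1. In WT, both 2 Gy arrays lay below both non-irradiated arrays (log2 difference -0.305), while in CD169DTR/+ the 2 Gy arrays lay between the non-irradiated ones (0.115).

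Slc25a37 (mitoferrin 1) brings iron into the mitochondria of developing red cells. It had log2 values of 6.7 and 7.08 in CD169DTR/+ 2 Gy, 6.79 and 7.12 in CD169DTR/+ non-irradiated, 6.99 and 6.86 in WT 2 Gy and 7.12 and 7.32 in WT non-irradiated. WT 2 Gy lay below WT non-irradiated without overlap (log2 difference -0.295, 95% interval -0.738 to 0.148, limma adjusted p = 0.698), with -0.195 left without WT non-irradiated replicate 2, and the CD169DTR/+ groups overlapped (-0.065).

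Fth1 encodes the ferritin heavy chain, the ferroxidase subunit of the iron storage shell. Its log2 values were 8.29 and 8.31 in CD169DTR/+ 2 Gy, 8.39 and 8.4 in CD169DTR/+ non-irradiated, 8.3 and 8.3 in WT 2 Gy and 8.33 and 8.32 in WT non-irradiated. All 4 arrays of 2 Gy mice lay below all 4 arrays of non-irradiated mice, which 1.74% of all probe sets did in that direction (5.5% in either direction). The nearest arrays were 8.31 and 8.32. The averaged log2 difference was -0.06 (95% interval -0.235 to 0.115, limma adjusted p = 0.782), and the value in WT, -0.025, turned to 0.0185 with cyclic loess. A range over the 8 arrays of at most its 0.11 log2 was found in 0.38% of probe sets. Its values lie between the 77.2th and the 78.1th percentile of their arrays. How well its 1 probe set follows the Fth1 mRNA was not tested. limma draws the spread of each probe set towards that of the others (median residual SD 0.1817 log2), so the interval is wider than the residual SD of Fth1 alone would give (0.00866, at or below which lie 0.0132% of probe sets).

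The partner subunit, the ferritin light chain Ftl1, was looked at because of this pattern, after its values were seen. On the arrays it had log2 values of 14.02 and 13.91 in CD169DTR/+ 2 Gy, 14.15 and 14.29 in CD169DTR/+ non-irradiated, 13.86 and 14.06 in WT 2 Gy and 14.22 and 14.08 in WT non-irradiated. All of its 2 Gy arrays lay below all of its non-irradiated arrays, as did 1.74% of all probe sets (5.5% in either direction). The nearest arrays were 14.06 and 14.08. Its averaged log2 difference was -0.222 (95% interval -0.447 to 0.00184, limma adjusted p = 0.541). Neither ferritin gene passed the test.

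Slc40a1 encodes ferroportin, the iron exporter through which macrophages return iron to plasma. The log2 values were 4.35 and 4.57 in CD169DTR/+ 2 Gy, 4.56 and 4.94 in CD169DTR/+ non-irradiated, 4.59 and 4.56 in WT 2 Gy and 4.75 and 4.6 in WT non-irradiated. These lie between the 39.6th and the 50.9th percentile of their arrays, where signal over background is low. The averaged log2 difference for 2 Gy minus non-irradiated was -0.195 (95% interval -0.473 to 0.0834, limma adjusted p = 0.625), and -0.1 without CD169DTR/+ non-irradiated replicate 2.

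Hmox1, haem oxygenase 1, opens the haem ring and frees its iron. Its log2 values were 3.96 and 3.81 in CD169DTR/+ 2 Gy, 3.77 and 3.97 in CD169DTR/+ non-irradiated, 4.35 and 4.0 in WT 2 Gy and 4.02 and 4.16 in WT non-irradiated. All 4 CD169DTR/+ arrays lay below all 4 WT arrays, as did 1.09% of all probe sets (in either direction 2.61%, higher 1.52%), and the nearest arrays of the genotypes were 3.97 and 4.0. The averaged log2 difference of CD169DTR/+ minus WT was -0.255 (95% interval -0.529 to 0.0189, limma adjusted p = 0.807), and -0.168 without WT 2 Gy replicate 1. These values lie between the 15.4th and the 35.6th percentile of their arrays, where signal over background is low. The macrophage markers were measured beside it, since macrophages express Hmox1. Over 16 of 16 markers, the mean log2 value was 5.345 to 5.389 in CD169DTR/+ 2 Gy, 5.308 to 5.522 in CD169DTR/+ non-irradiated, 5.432 to 5.606 in WT 2 Gy and 5.418 to 5.435 in WT non-irradiated. Lyz2 (13.51 to 14.0) and Cd68 (7.57 to 8.67) lift that mean. Siglec1 (3.86 to 4.12) and Csf1r (4.12 to 4.84), among others, lay below the array medians. After 2 Gy, 14 of the 16 were lower in CD169DTR/+ than in WT, as were 16161 of all 30294 probe sets, and 8 were lower without overlap (18.9% of all probe sets). In that comparison 1 was higher without overlap (16.0%). Without irradiation 9 were lower (12673 of all 30294 probe sets were), 3 without overlap (11.9%), and 1 was higher without overlap (19.1%). No log2 value is 0 on these arrays, and the part of these markers in the Hmox1 values was not tested.

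Flvcr1 encodes a haem exporter that red cell progenitors need. On the arrays it had log2 values of 8.27 and 8.34 in CD169DTR/+ 2 Gy, 7.33 and 8.22 in CD169DTR/+ non-irradiated, 8.63 and 8.77 in WT 2 Gy and 8.04 and 8.8 in WT non-irradiated. After 2 Gy the CD169DTR/+ arrays lay below the WT arrays (log2 difference -0.395, limma adjusted p = 0.839), and in CD169DTR/+ the 2 Gy arrays lay above the non-irradiated ones (0.53, limma adjusted p = 0.866). Averaged over treatments, CD169DTR/+ minus WT was -0.52 (95% interval -1.1 to 0.058, limma adjusted p = 0.814). Without CD169DTR/+ non-irradiated replicate 1, the value of 2 Gy in CD169DTR/+ was 0.085 and that averaged over treatments -0.297.

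The iron regulatory proteins are Aco1 (IRP1, which is a cytosolic aconitase when it holds an iron-sulphur cluster) and Ireb2 (IRP2, which is degraded when iron is plentiful). Aco1 had log2 values of 8.11 and 8.13 in CD169DTR/+ 2 Gy, 8.11 and 8.23 in CD169DTR/+ non-irradiated, 7.7 and 8.15 in WT 2 Gy and 7.27 and 8.91 in WT non-irradiated. The 4 CD169DTR/+ arrays lay within 0.12 log2 of each other, inside the gap of 1.64 log2 between the WT non-irradiated replicates. Its log2 differences between groups ran from -0.165 for 2 Gy in WT to 0.195 for CD169DTR/+ minus WT after 2 Gy.

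Ireb2 had the widest range of the 10 genes. The log2 values were 7.24 and 7.37 in CD169DTR/+ 2 Gy, 6.96 and 6.77 in CD169DTR/+ non-irradiated, 7.01 and 8.9 in WT 2 Gy and 7.29 and 6.48 in WT non-irradiated. The log2 difference for 2 Gy minus non-irradiated was 1.07 in WT (95% interval -0.318 to 2.46, limma adjusted p = 0.672) and 0.44 in CD169DTR/+ (-0.948 to 1.83, limma adjusted p = 0.95), where the arrays did not overlap. The WT value rests on replicate 2 of WT 2 Gy, and without that array it was 0.125. A range as wide as that of Ireb2, 2.42 log2, was found in 1.41% of probe sets.

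The highest group mean lay in CD169DTR/+ non-irradiated for 5 genes (Tfrc, Steap3, Fth1, Slc40a1 and Aco1), in WT 2 Gy for 3 (Hmox1, Flvcr1 and Ireb2), in CD169DTR/+ 2 Gy for Slc11a2 and in WT non-irradiated for Slc25a37. No pair of groups compared differed beyond its spread by the test. Over the 10 genes the median log2 difference for 2 Gy minus non-irradiated was -0.0625 in WT and -0.0575 in CD169DTR/+, against 0.075 and 0.035 over all probe sets. For CD169DTR/+ minus WT it was 0.0725 without irradiation and -0.075 after 2 Gy, against 0.03 and -0.02. In WT, 0 genes lay higher and 4 lower after 2 Gy without overlap, against 31.4% and 13.2% of all probe sets (44.7% in all). The nearest arrays were 5.99 and 6.02 for Slc11a2, 8.3 and 8.32 for Fth1, 4.59 and 4.6 for Slc40a1 and 6.99 and 7.12 for Slc25a37. These shares include dim probe sets. The 25th percentile of the arrays was 4.04 and 3.95 in WT 2 Gy and 3.88 and 3.87 in WT non-irradiated. In CD169DTR/+ 2 lay higher and 2 lower, against 17.8% and 13.4% (31.2% in all). For CD169DTR/+ minus WT, 1 lay higher and 1 lower without irradiation, against 19.1% and 11.9% (31.0% in all), and 1 higher and 2 lower after 2 Gy, against 16.0% and 18.9% (34.9% in all). With 2 arrays a group, such counts are a description.

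**Figure D2:**
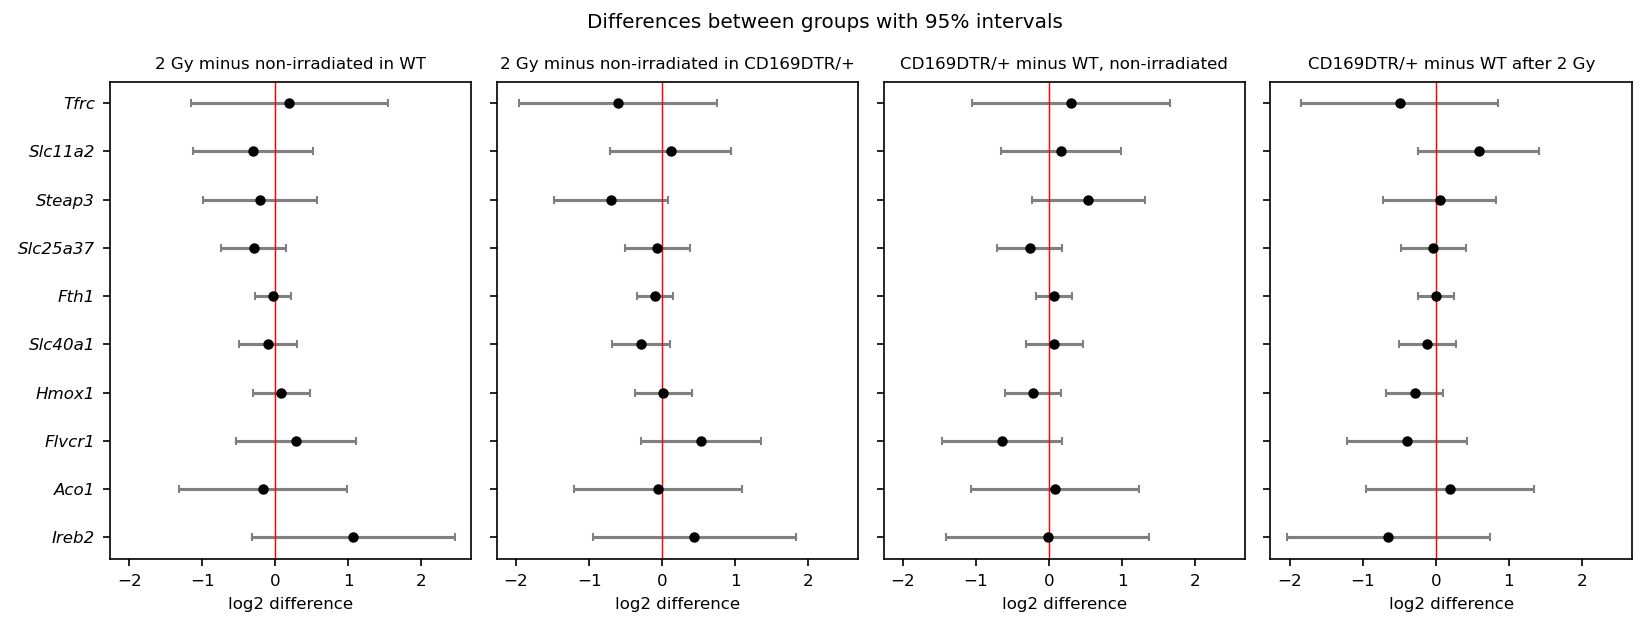
Log2 differences between groups for the 10 genes in 4 comparisons, 2 Gy minus non-irradiated in each genotype and CD169DTR/+ minus WT for each treatment; points are limma estimates and bars 95% intervals. Every bar crosses 0, with the widest bars in Ireb2 and Tfrc and the narrowest in Fth1.

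Single arrays shaped most of these values: of the 70 differences of the 10 genes, 61 moved by over 1.5 times or turned sign when 1 array was left out. In CD169DTR/+ non-irradiated replicate 2, 5 of the 10 genes had their highest value of the 8 arrays, namely Tfrc, Slc11a2, Steap3, Fth1 and Slc40a1, against 9.35% of all probe sets. Fth1 counts here by a margin of 0.01 log2 over replicate 1 of the same group. Slc40a1 lies where signal over background is low. The highest value of 3 genes (Slc25a37, Flvcr1 and Aco1) lay in WT non-irradiated replicate 2 (7.26% of probe sets), that of Hmox1 in WT 2 Gy replicate 1 (22.8%) and that of Ireb2 in WT 2 Gy replicate 2 (11.9%). The other 3 CD169DTR/+ arrays, which held 12.0%, 18.7% and 13.6% of the maxima of probe sets (2 Gy replicates 1 and 2 and non-irradiated replicate 1), and WT non-irradiated replicate 1 (7.79%) held 0. These shares count dim probe sets too. CD169DTR/+ non-irradiated replicate 2 had the lowest 25th percentile (3.85) and the highest upper quartile (7.69). WT 2 Gy replicate 1 had the highest 25th percentile (4.04). Shares at the signal level of the 10 genes were not computed. The erythroid markers were also highest in CD169DTR/+ non-irradiated replicate 2, 15 of 17 measured of 25 listed. Their mean deviation from each gene's own mean was 1.144 log2 in that array and -0.788 to 0.372 in the others. Car1, a carbonic anhydrase of red cell precursors, was 16.07 there and 8.09 to 15.09 on the other arrays, and the blood group gene Kel was 8.51 there and 4.37 to 5.02 on the others. The mean log2 value of the 17 markers was 6.488 to 7.054 in CD169DTR/+ 2 Gy, 7.004 to 8.419 in CD169DTR/+ non-irradiated, 6.927 to 7.258 in WT 2 Gy and 7.407 to 7.647 in WT non-irradiated. In such bulk RNA, fewer cells of a type and less RNA per cell cannot be told apart. The part of the erythroid signal in the iron gene values was not tested.

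Ireb2 was highest in WT 2 Gy replicate 2, where 7 of 10 granulocyte and progenitor markers were highest too, with a mean deviation of 1.366 log2 and -1.614 to 0.642 log2 on the other arrays. The mean log2 value of the 10 markers was 9.002 to 10.05 in CD169DTR/+ 2 Gy, 9.371 to 10.007 in CD169DTR/+ non-irradiated, 10.185 to 10.909 in WT 2 Gy and 7.929 to 8.888 in WT non-irradiated. Their part in the Ireb2 values was not tested. Tfrc, Steap3, Flvcr1 and Aco1 were higher in replicate 2 than in replicate 1 in all 4 groups, which 4.93% of probe sets were, while 0 of the 10 were lower in replicate 2 in all 4 groups (6.28% of probe sets). The mean deviation of the macrophage markers was -0.124 to 0.174 log2 over the 8 arrays.

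**Figure D3:**
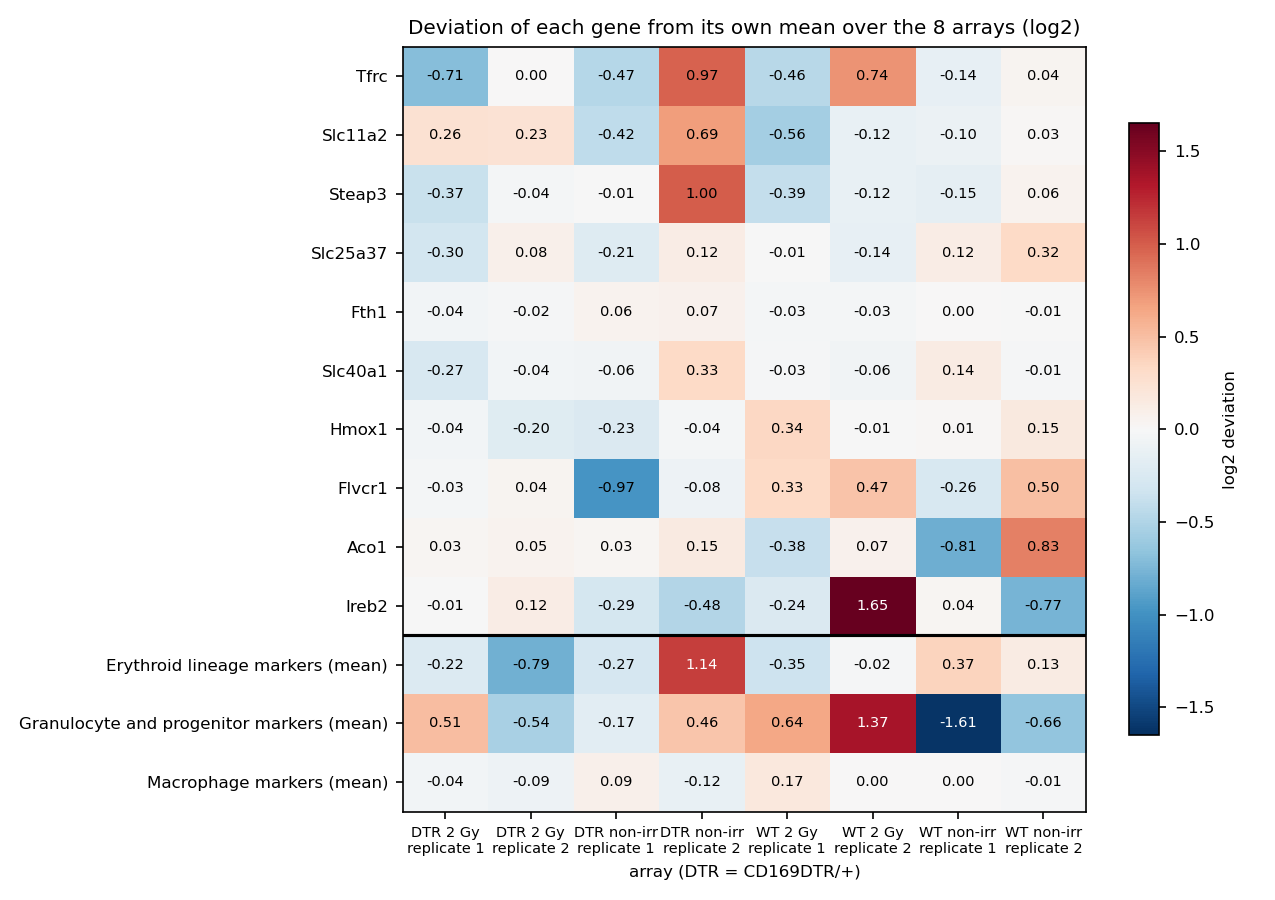
Heat map of the log2 deviation of each of the 10 genes from its own mean over the 8 arrays, with the mean deviation of erythroid, granulocyte and macrophage markers in the bottom rows; columns are arrays and DTR stands for CD169DTR/+. Tfrc (0.974) and Steap3 (1.002) are darkest in CD169DTR/+ non-irradiated replicate 2, where the erythroid row is at 1.144, and Ireb2 (1.648) in WT 2 Gy replicate 2, where the granulocyte row is at 1.366.

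Likeness was measured for Ireb2 and Tfrc, whose range over the arrays was the widest, as the root-mean-square difference of centred log2 values over the 8 arrays among 18169 probe sets. The genes most like Ireb2 were Mpo, the myeloperoxidase of granulocyte precursors (0.28 log2), Gca, which encodes grancalcin (0.287), Cenpj (0.344), Mapk11 (0.357) and Cit (0.36). Mpo, itself a granulocyte marker here, was 14.06 in WT 2 Gy replicate 2 and 11.25 to 12.44 on the other arrays. Those most like Tfrc were Asb17 (0.247), Rbm45 (0.273), Tlcd4 (0.295), Myo1d (0.296) and Ifrd2 (0.301). This likeness is over 8 arrays of 4 groups, is a description and carries no test.

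A wider list of 53 iron and haem genes, of which 50 were measured, was read beside the 10. None passed in any comparison, and the smallest limma adjusted p was 0.34. In the average of both genotypes, 2 Gy minus non-irradiated, 1 of the 50 had an unadjusted p under 0.05 and a higher level and 5 had a lower level, against 5.24% higher and 3.98% lower of all probe sets. The median of the 50 was -0.0425 log2 and that of all probe sets 0.055. For CD169DTR/+ minus WT on average, 4 had an unadjusted p under 0.05 with a higher level and 0 with a lower one (all probe sets, 3.75% and 2.58%), with a median of 0.0288 log2 against 0.005.

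Among genes of the transferrin cycle and iron import, 9 measured of 9, Trf and Tfr2 had the smallest p. Tfr2, a second transferrin receptor known as a sensor of iron in liver and erythroid cells, had log2 values of 8.71 and 8.87 in CD169DTR/+ 2 Gy, 9.39 and 9.13 in CD169DTR/+ non-irradiated, 8.33 and 8.31 in WT 2 Gy and 9.24 and 8.79 in WT non-irradiated. Within each genotype the 2 Gy arrays lay below the non-irradiated ones, with an averaged log2 difference of -0.583 (95% interval -0.891 to -0.274, limma adjusted p = 0.34). Trf, transferrin itself, had 9.59 and 9.42 in CD169DTR/+ 2 Gy, 10.15 and 9.73 in CD169DTR/+ non-irradiated, 9.15 and 8.8 in WT 2 Gy and 9.8 and 9.63 in WT non-irradiated. Its averaged log2 difference for 2 Gy minus non-irradiated was -0.588 (-0.916 to -0.259, limma adjusted p = 0.377). For both, CD169DTR/+ arrays lay above WT arrays after 2 Gy, with log2 differences of 0.47 for Tfr2 and 0.53 for Trf (limma adjusted p = 0.648 each). Lcn2, which binds iron-carrying siderophores and is made by neutrophils, differed by 0.99 log2 in CD169DTR/+ minus WT without irradiation (limma adjusted p = 0.999) and by 0.57 log2 without WT non-irradiated replicate 1. After 2 Gy its difference was -0.415 log2, and the interaction was -1.41 log2 (95% interval -2.74 to -0.0677, limma adjusted p = 0.933). All 10 granulocyte and progenitor markers were higher in CD169DTR/+ than in WT without irradiation (median 0.968 log2), as were 17262 of all 30294 probe sets. After 2 Gy 8 of 10 were lower (median -0.845 log2), as were 16161 of all 30294 probe sets. The part of these markers in the Lcn2 values was not tested.

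In storage and release (7 of 7 measured), Ncoa4, the receptor that takes ferritin to the lysosome, had a log2 difference of -0.545 for 2 Gy in WT (limma adjusted p = 0.596), and -0.35 without WT non-irradiated replicate 1. Its values were 10.07 and 10.28 in CD169DTR/+ 2 Gy, 10.71 and 10.27 in CD169DTR/+ non-irradiated, 10.09 and 10.15 in WT 2 Gy and 10.86 and 10.47 in WT non-irradiated. Pcbp1, a chaperone that hands iron to ferritin, had 6.3 and 6.47 in CD169DTR/+ 2 Gy, 6.17 and 6.11 in CD169DTR/+ non-irradiated, 5.93 and 5.92 in WT 2 Gy and 6.12 and 6.01 in WT non-irradiated. The CD169DTR/+ 2 Gy arrays were the highest of the 8, and CD169DTR/+ minus WT after 2 Gy was 0.46 log2 (95% interval 0.177 to 0.743, limma adjusted p = 0.619). Ftmt, mitochondrial ferritin, lay between 3.23 and 3.6 on the 8 arrays, below the 25th percentile of each, so no difference is given for it.

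Of the genes for haem uptake, breakdown and export (9 of 9 measured), Hp, the haptoglobin that binds free haemoglobin, had log2 values of 6.61 and 6.85 in CD169DTR/+ 2 Gy, 6.35 and 6.52 in CD169DTR/+ non-irradiated, 6.71 and 8.16 in WT 2 Gy and 5.8 and 5.65 in WT non-irradiated. All 4 arrays of 2 Gy mice lay above all 4 of non-irradiated mice, as did 3.76% of probe sets. The averaged log2 difference was 1.0 (95% interval 0.287 to 1.72, limma adjusted p = 0.444), and in WT it was 1.71. Without WT 2 Gy replicate 2 these were 0.64 and 0.985. Haptoglobin is also made in granulocyte precursors, whose markers were highest in that same array, and their part in the Hp values was not tested. Blvrb, a biliverdin reductase of red cells, had a log2 difference of -0.845 for 2 Gy in CD169DTR/+ (limma adjusted p = 0.685), and -0.38 without CD169DTR/+ non-irradiated replicate 2. Its value of 10.21 in CD169DTR/+ non-irradiated replicate 2 was its highest, with 8.73 to 9.57 on the other arrays. Slc48a1, which moves haem out of lysosomes, differed by -0.345 log2 in CD169DTR/+ minus WT without irradiation (limma adjusted p = 0.999), and by -0.165 log2 without CD169DTR/+ non-irradiated replicate 1.

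In haem synthesis, 12 of 13 genes were measured, and the median log2 difference for 2 Gy minus non-irradiated was -0.255 in CD169DTR/+ and -0.0025 in WT, against 0.035 and 0.075 over all probe sets. Of the erythroid markers, 16 of 17 were lower after 2 Gy in CD169DTR/+ (median -0.55 log2), as were 12845 of all 30294 probe sets. In WT 11 of 17 were lower (median -0.11 log2), as were 35.0% of all probe sets. CD169DTR/+ non-irradiated replicate 2, where these markers were highest, enters the CD169DTR/+ values, and their part in the haem synthesis values was not tested. Slc25a38, the mitochondrial carrier that supplies glycine for the first step of haem synthesis, had 5.89 and 5.68 in CD169DTR/+ 2 Gy, 6.1 and 6.36 in CD169DTR/+ non-irradiated, 5.43 and 5.24 in WT 2 Gy and 5.68 and 5.7 in WT non-irradiated. It was lower after 2 Gy in each genotype without overlap and higher in CD169DTR/+ than in WT with each treatment without overlap. The averaged log2 differences were -0.4 for 2 Gy (95% interval -0.65 to -0.15, limma adjusted p = 0.405) and 0.495 for CD169DTR/+ minus WT (0.245 to 0.745, limma adjusted p = 0.683). Fech, the ferrochelatase that puts iron into the ring, differed by -0.365 log2 in CD169DTR/+ minus WT without irradiation (limma adjusted p = 0.999), and by -0.22 log2 without WT non-irradiated replicate 1.

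The 8 genes that control iron levels, all measured, and the 5 measured of 7 for mitochondrial iron and iron-sulphur cluster assembly had 0 members with an unadjusted p under 0.05 in each of the 7 comparisons. The averaged median log2 difference for 2 Gy minus non-irradiated was 0.0363 and 0.025 in these lists. All 5 of the mitochondrial genes were lower after 2 Gy in WT (median -0.11 log2), where 35.0% of all probe sets were, and 4 of 5 were higher after 2 Gy in CD169DTR/+ (median 0.16 log2), where 56.6% of all probe sets were. Over all roles, 0 of the 10 and 3 of the 50 further genes (Alas2, Cp and Pcbp1) lay in opposite directions after 2 Gy in the 2 genotypes without overlap in either, as did 4.44% of all probe sets.

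**Figure D4:**
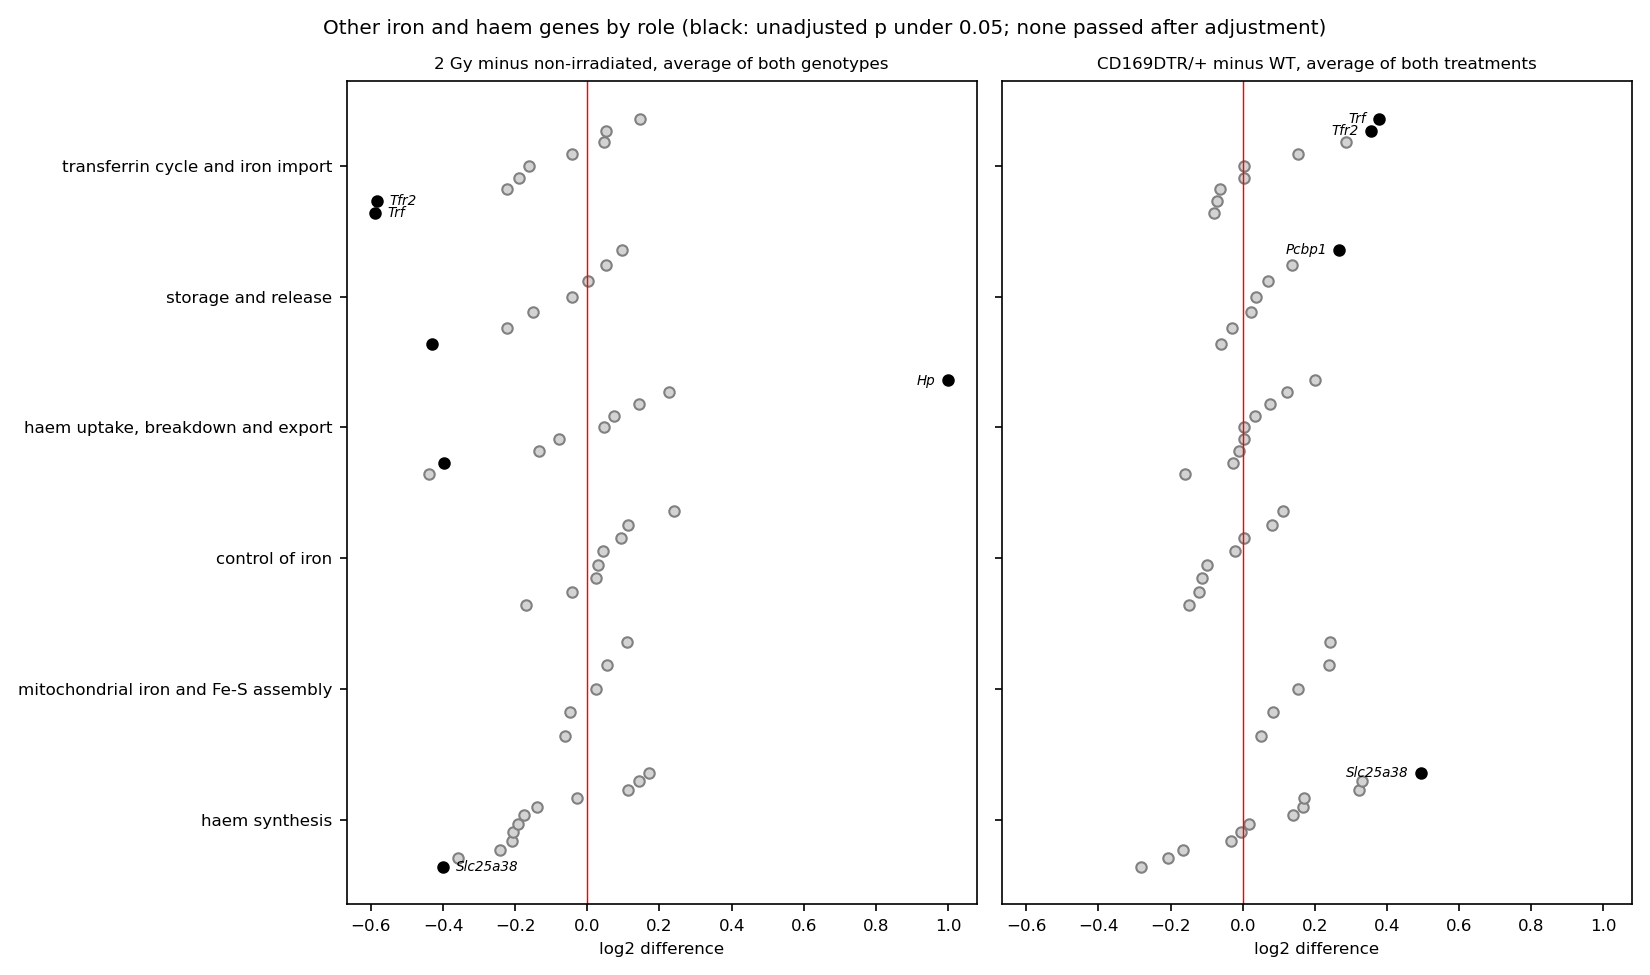
Log2 differences of 50 further iron and haem genes by role, for 2 Gy minus non-irradiated averaged over genotypes (left) and CD169DTR/+ minus WT averaged over treatments (right); each point is a gene and black points have an unadjusted p under 0.05. Hp lies farthest to the right for 2 Gy (1.0), Trf (-0.588) and Tfr2 (-0.583) farthest to the left, and Slc25a38 (0.495) farthest to the right for genotype.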

How the data were processed

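Log2 expression values of 8 arrays of LT-HSC RNA, 1 per probe set and array, were made by the authors with RMA, per the submitters' processing notes. RMA (robust multi-array averaging) corrects background, normalises the arrays together and summarises the probes of each set. The base of the logarithm was taken from the convention of RMA, since the deposited table does not state it. The genome build of the array and the version of RMA are not given in the sources used here. The deposited values were not normalised again, filtered or offset.

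Of 40161 probe sets, 30294 had 1 gene symbol and were tested, 2145 had several and 7722 had none. Entrez IDs matched 22546 to the RefSeq gene table of GRCm38.p6, which updated 827 symbols. Gene coordinates are not used, except for the RefSeq promoter windows of that build.

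One model with a mean for each of the 4 groups was fitted with limma 3.58.1 (lmFit and eBayes; statmod 1.5.0, R 4.3.3). The spread was shared over groups, with 4 residual and 2.586 prior degrees of freedom. Tests were two-sided, and Benjamini-Hochberg adjustment ran over 30294 probe sets within each of 7 comparisons. The fit was tested on simulated data. The number of arrays limits the precision. Where nothing says that the 2 arrays of a group came from separate animals, p-values measure the spread between these arrays.

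The members and gene lists were chosen with earlier results of these data known. All 10 members are named. Of the wider list, the members that pass, or otherwise up to 4 with the smallest unadjusted p in a comparison, are named. Ftl1 was added after its values were seen.

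The alternatives were run 1 at a time: limma's trend and robust options (set together), leaving out dim probe sets (mean below the 40th percentile), testing every probe set, another scaling (cyclic loess; median centring), weights per array, replicate number as blocking factor, a fit on the compared groups alone, a call by unadjusted p (0.05) together with fold (1.5 or more), and leaving out single arrays. A fit without WT 2 Gy replicate 1 and CD169DTR/+ 2 Gy replicate 2 was chosen after seeing the data. An array left without its partner takes its spread from the other groups.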

Additional observations from a re-analysis of the deposited data

Results flagged for a closer look

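The log2 differences for 2 Gy ran in opposite directions in the 2 genotypes, without overlap of the arrays in either, for 3 of the 50 further genes and for 4.44% of all probe sets. A count of 3 in 50 lies near that share. Alas2, the erythroid enzyme of the first step of haem synthesis, had log2 values of 4.66 and 4.58 in CD169DTR/+ 2 Gy, 4.81 and 4.92 in CD169DTR/+ non-irradiated, 4.8 and 4.94 in WT 2 Gy and 4.59 and 4.77 in WT non-irradiated. These lie around the array medians (4.76 to 4.93), where signal over background is low, and the nearest WT arrays were 4.8 and 4.77. For Alas2 the difference of the 2 Gy effects, CD169DTR/+ minus WT, was -0.435 log2 (95% interval -0.863 to -0.00698, limma adjusted p = 0.933). Pcbp1, described above, had a difference of the 2 Gy effects of 0.385 log2 (-0.0159 to 0.786, limma adjusted p = 0.933). Cp, which encodes the ferroxidase ceruloplasmin, lies outside the rule for named genes and was named after its values were seen. It had 3.72 and 3.77 in CD169DTR/+ 2 Gy, 3.81 and 3.84 in CD169DTR/+ non-irradiated, 3.82 and 3.79 in WT 2 Gy and 3.77 and 3.67 in WT non-irradiated, below the 25th percentile of each array. Its difference of the 2 Gy effects was -0.165 log2 (-0.531 to 0.201, limma adjusted p = 0.96). None of the 3 passed the test of the difference itself.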

How the results depend on the processing

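No member passed in any comparison under any alternative run, the call by unadjusted p and fold included. No named gene of the wider list passed under an alternative that kept the adjusted p. By unadjusted p and fold, 5 of them were called: Hp and Trf for 2 Gy in WT and on average, Tfr2 for 2 Gy in WT, Blvrb for 2 Gy in CD169DTR/+, and Lcn2 for genotype without irradiation and for the interaction. These genes were named for a small unadjusted p, so this call is no separate support. The share of all probe sets meeting both conditions was not computed. Unadjusted p alone was met by 7.81% for 2 Gy in WT, 6.77% in CD169DTR/+ and 9.23% on average. For genotype without irradiation it was met by 4.38%, and for the interaction by 5.17%. With the replicate number as a block, 0 members passed in each comparison, and the smallest adjusted p of a member was 0.516. Over all probe sets, same-numbered replicates did not deviate together (r -0.0877 to 0.159), so the numbers were not taken to pair the samples. Among the members, Tfrc, Steap3, Flvcr1 and Aco1 were higher in replicate 2 in all 4 groups, as were 4.93% of probe sets. No member was lower in replicate 2 in all 4 groups (6.28% of probe sets). Counts over all probe sets varied more: 0 to 16 for 2 Gy in WT (3 as reported, 1 with the block), 0 to 5 in CD169DTR/+ (0) and 1 to 12 on average (3), and 0 to 6 for genotype without irradiation, 0 to 11 after 2 Gy, 0 to 4 on average and 0 to 7 for the interaction (0 each). The interaction and the averages use all 4 groups, so that limiting the fit to the groups compared was not run for them. No member had a further probe set among those with 1 gene symbol, and probe sets with several symbols were not searched for members.

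Of the differences of members, none of which passed, 68 alternative values had the opposite sign. Genotype is CD169DTR/+ minus WT and 2 Gy is 2 Gy minus non-irradiated. With cyclic loess these were Fth1 (0.0185) and Hmox1 (-0.03) for 2 Gy in WT, and Hmox1 in CD169DTR/+ (-0.0304) and on average (-0.0302). With median centring they were Hmox1 for 2 Gy in WT (-0.03), in CD169DTR/+ (-0.005) and on average (-0.0175) and for the interaction (0.025), Fth1 for the interaction (0.025), Slc25a37 for genotype after 2 Gy (0.035) and Slc40a1 for genotype on average (0.0025). Without WT 2 Gy replicate 1 and CD169DTR/+ 2 Gy replicate 2 together, chosen after seeing the data, they were Hmox1 (-0.09) and Aco1 (0.06) for 2 Gy in WT, Steap3 (-0.25) and Aco1 (-0.04) for genotype after 2 Gy, Hmox1 (0.18) and Aco1 (-0.12) for the interaction and Slc11a2 for 2 Gy on average (0.0175). Leaving out 1 array at a time turned the sign of 33 differences, and their ranges with 1 array or that pair left out follow. For 2 Gy in WT, the log2 difference lay for Tfrc between -0.41 and 0.79, Hmox1 between -0.09 and 0.26, Flvcr1 between -0.1 and 0.66 and Aco1 between -0.985 and 0.655. For 2 Gy in CD169DTR/+, the log2 difference lay for Tfrc between -1.33 and 0.115, Slc11a2 between -0.44 and 0.67, Slc25a37 between -0.255 and 0.125, Hmox1 between -0.085 and 0.115 and Aco1 between -0.11 and 0.01. For genotype without irradiation, the log2 difference lay for Tfrc between -0.42 and 1.02, Slc11a2 between -0.39 and 0.72, Slc40a1 between -0.115 and 0.265, Aco1 between -0.74 and 0.9 and Ireb2 between -0.425 and 0.385. For genotype after 2 Gy, the log2 difference lay for Tfrc between -1.45 and 0.105, Steap3 between -0.25 and 0.215, Slc25a37 between -0.225 and 0.155, Aco1 between -0.04 and 0.42 and Ireb2 between -1.66 and 0.295. For the interaction, the log2 difference lay for Slc11a2 between -0.135 and 0.975, Steap3 between -0.995 and 0.015, Hmox1 between -0.245 and 0.18, Flvcr1 between -0.195 and 0.695, Aco1 between -0.705 and 0.935 and Ireb2 between -1.64 and 0.315. For 2 Gy on average, the log2 difference lay for Tfrc between -0.568 and 0.152, Slc11a2 between -0.373 and 0.182, Hmox1 between -0.0375 and 0.137 and Aco1 between -0.518 and 0.302. For genotype on average, the log2 difference lay for Tfrc between -0.575 and 0.262, Slc40a1 between -0.115 and 0.075, Aco1 between -0.273 and 0.547 and Ireb2 between -0.84 and 0.138. The cause was not tested. The 2 arrays per group and low signal over background for Hmox1 and Slc40a1 limit what can be seen.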
